A study of Rattus norvegicus with 8 samples.

Results

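The proteasome is the protease that degrades ubiquitin-tagged proteins. Its genes were followed here in primary rat neurons exposed to ADDL, soluble oligomers of the amyloid-beta peptide, and to CAT-SKL, a form of the peroxide-degrading enzyme catalase that is targeted to peroxisomes. The members were the probes whose accession matched a RefSeq symbol starting with Psma, Psmb, Psmc, Psmd, Psme, Psmf or Psmg and a digit, without Psmb8 and Psmb9: 50 of 30367 probes, for 44 genes. All 44 genes were tested, among 22459 genes and accessions. By role they were 8 genes of the alpha ring and 8 of the beta ring of the 20S core, 6 ATPases and 10 non-ATPase subunits of the 19S regulatory particle, 5 activators and inhibitors, and 5 assembly chaperones. The spelling of the rule also took Psmc3ip and Psme3ip1, which are named after their binding partners and are not subunits.

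The neurons came from cortex and hippocampus of Sprague Dawley embryos (E18), bought as tissue, and had been in culture for 7 days. Each of 4 treatments had 2 arrays: CAT-SKL by itself, ADDL by itself, pre-treatment with CAT-SKL and then ADDL (named CAT-SKL+ADDL), and the reverse order (named ADDL+CAT-SKL), with every agent given at 1 µM for 24 h. On each of the 8 arrays a treated sample in Cy5 was set against vehicle-treated neurons in Cy3, so a log2 ratio above 0 means more signal in the treated sample. No dye was swapped, and whether vehicle was 1 pool of RNA was not stated. The study asked which genes respond to ADDL with or without the antioxidant.

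Neuronal markers were represented by 7 of 8 listed genes, and each of the 7 had vehicle signal well above background on all 8 arrays. The cultures also held signal for astrocyte (7 of 8 listed genes tested), oligodendrocyte lineage (7 of 7) and microglia markers (6 of 7). The median log2 ratio of the astrocyte markers was 1.23 and 0.20 in CAT-SKL 1 and 2, 0.57 and 1.19 in ADDL 1 and 2, 1.19 and 1.13 in CAT-SKL+ADDL 1 and 2, and 0.33 and -0.02 in ADDL+CAT-SKL 1 and 2. The oligodendrocyte lineage markers had medians from -0.09 to 0.82 over the 8 arrays. After CAT-SKL 3 of 7, Pdgfra, Olig2 and Sox10, passed as higher (limma adjusted p below 0.05), against 0.837% of all genes. The median log2 change of the 7 was 0.57 after CAT-SKL, 0.53 after ADDL, 0.79 after CAT-SKL+ADDL and -0.003 after ADDL+CAT-SKL. Markers of dividing progenitors (4 of 6 listed genes tested) had medians from 0.20 to 0.68, above 0 on every array. Of these 1 of 4, Birc5, passed as higher after CAT-SKL, and their median change in the same order was 0.45, 0.54, 0.65 and 0.29. After ADDL and CAT-SKL+ADDL 0% of all genes passed, so these calls do not set CAT-SKL apart from them. Microglia markers had medians from -0.12 to 0.26. The neuronal markers had medians from -0.18 to 0.09, but single genes moved in opposite directions. They ran from -0.58 (Tubb3 in ADDL+CAT-SKL 2) to 0.59 (Map2 in ADDL 1). In ADDL 1 Syt1 was also higher, at 0.37, while Nefl was at -0.47 and Nefm at -0.48. The part of this cell make-up in the results was not tested, and in such bulk samples fewer cells of a type and less RNA per cell cannot be told apart. Between the CAT-SKL+ADDL arrays the spread of the differences was close to the noise of duplicate spots (SD 0.0836 against 0.0830), and the difference seen on first spots did not recur on second spots (r = 0.00718, against 0.272 to 0.678 for the 27 other pairs of arrays, across probes, which are not independent). They were counted as 1 sample. The design text calls the 2 replicates of a group biological without saying what was separate, so a p-value here covers the spread among those samples and no other, and few arrays limit the precision.

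The 20S core is a barrel of stacked rings. Its beta ring carries the proteolytic sites, of which Psmb6 has the caspase-like, Psmb7 the trypsin-like and Psmb5 the chymotrypsin-like activity, while the alpha ring gates the entrance. The 19S particle binds ubiquitin chains, removes them and unfolds the substrate with a ring of ATPases. Neurons depend on this machinery for the turnover of synaptic and misfolded proteins. In mammalian cells the subunit genes can be induced together by the transcription factor NRF1 (gene Nfe2l1) through antioxidant response elements in their promoters.

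That element (TGACNNNGC, searched on both strands) stood in the 250 bases before the start of 7 of the 40 members found in the promoter table, a share of 17.5%, against 10.2% of 27457 promoters. The median share of G and C in this window was 56.2% for members and 52.0% for all promoters, and its part in these counts was not tested. The heat shock element was in 0 of the 40 and in 0.597% of all promoters. The stretches below, from RefSeq on build GRCr8, belong to the catalytic subunits Psmb5 and Psmb6, which have the element where Psmb7 and the inducible Psmb10 do not, and to Psmb3, Psmb2 and Psmd13, on which the results turn. They read 5′ to 3′ on the gene's strand, capitals mark a match to the element, and stretches without a match are the 60 bases before the start.

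Psmb5 (chr15:32047401-32047469, minus strand): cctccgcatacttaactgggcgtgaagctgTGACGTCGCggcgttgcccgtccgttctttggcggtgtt

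Psmb6 (chr10:55737834-55737887, plus strand): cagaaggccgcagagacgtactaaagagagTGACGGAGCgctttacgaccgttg

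Psmb2 (chr5:144254960-144255028, plus strand): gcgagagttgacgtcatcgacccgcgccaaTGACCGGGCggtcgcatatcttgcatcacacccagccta

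Psmb3 (chr10:83193727-83193786, plus strand): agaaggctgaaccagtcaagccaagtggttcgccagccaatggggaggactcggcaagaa

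Psmd13 (chr1:205394188-205394247, plus strand): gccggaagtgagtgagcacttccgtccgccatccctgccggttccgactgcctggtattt

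A match describes letters in this window and no more. Of these 5 genes, the one that passed with loess-normalised arrays, Psmb3, had no match, as had Psmd13, while Psmb2 had one 60 to 68 bases before its start. With arrays centred on their medians instead, Psmb5, which had a match, also passed after CAT-SKL (limma adjusted p = 0.0476). Under that scaling Psmd13 passed after ADDL (limma adjusted p = 0.0148). Whether the element bears on these calls was not tested.

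The first comparison was CAT-SKL over vehicle, the antioxidant without oligomers. Among the 44 proteasome genes 1 rose, Psmb3, a non-catalytic subunit of the beta ring, and 0 fell. Over all genes 0.837% rose, 1.78% fell and 2.62% passed in either direction, and 1 of 44 (2.27%) is close to that share. CAT-SKL 1 read Psmb3 at a log2 ratio of 0.22 and CAT-SKL 2 at 0.33, both above its ratios in ADDL 1 (0.13), ADDL 2 (0.11), ADDL+CAT-SKL 1 (0.10) and ADDL+CAT-SKL 2 (0.11). The CAT-SKL+ADDL arrays, at 0.29 and 0.31, lay with the CAT-SKL arrays. The mean after CAT-SKL was 0.28 ± 0.05 (limma's SE, n = 2, adjusted p = 0.0447), a ratio of 1.21. This call was narrow. It was lost without CAT-SKL 1 (adjusted p = 0.394), CAT-SKL 2 (0.185), either ADDL array (0.0693 each) or either ADDL+CAT-SKL array (0.0727 each), and the log2 change stayed between 0.22 and 0.45 over 15 alternatives, of which 5 kept the call. The 5 include the fits without either CAT-SKL+ADDL array, which could not change this test, since that group counted as 1 sample. The Psmb3 probe had 2 spots per array, and the SD between them had a median of 0.11 over the arrays and a maximum of 0.32, beside the change of 0.28. The RefSeq table also lists 3 Psmb3-like genes and 7 Psmb3 pseudogenes, and the probe's letters were not used here, so whether the probe reads these copies was not tested.

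The catalytic subunits had small ratios after CAT-SKL. Psmb5, the chymotrypsin-like subunit, was at 0.08 and 0.14, Psmb6 at 0.08 and 0.12, and Psmb7 at 0.16 and 0.15 in CAT-SKL 1 and 2. Each was above vehicle on both arrays, and none passed (adjusted p of 0.30, 0.412 and 0.189). With the arrays centred on their medians Psmb5 passed (limma adjusted p = 0.0476), where 8.10% of all genes did. Psmb10, the inducible beta subunit that replaces Psmb7 in the immunoproteasome, was at -0.03 and 0.20, so its arrays lay on either side of vehicle. Of the 16 core genes 7 were above 0 on both CAT-SKL arrays and 5 below 0 on both (32.4% and 34% of all genes), with core medians of 0.02 and 0.05.

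In the 19S particle after CAT-SKL, Psmd14, the deubiquitinase that removes the chain, was at 0.18 and 0.32 (mean 0.25 ± 0.09, SE, n = 2, limma adjusted p = 0.179). Psmd7, a lid subunit that pairs with Psmd14, was lowest of the 44 genes at -0.24 and -0.13 (adjusted p = 0.131). Psmd4, a ubiquitin receptor, was at -0.13 and -0.11. The 16 genes of the particle had medians of -0.02 and 0.03, and 0 of 16 passed, with 4 at an unadjusted p below 0.05. Over all 44 genes that count was 10 (22.7%), against 21.2% of all genes tested.

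**Figure D1:**
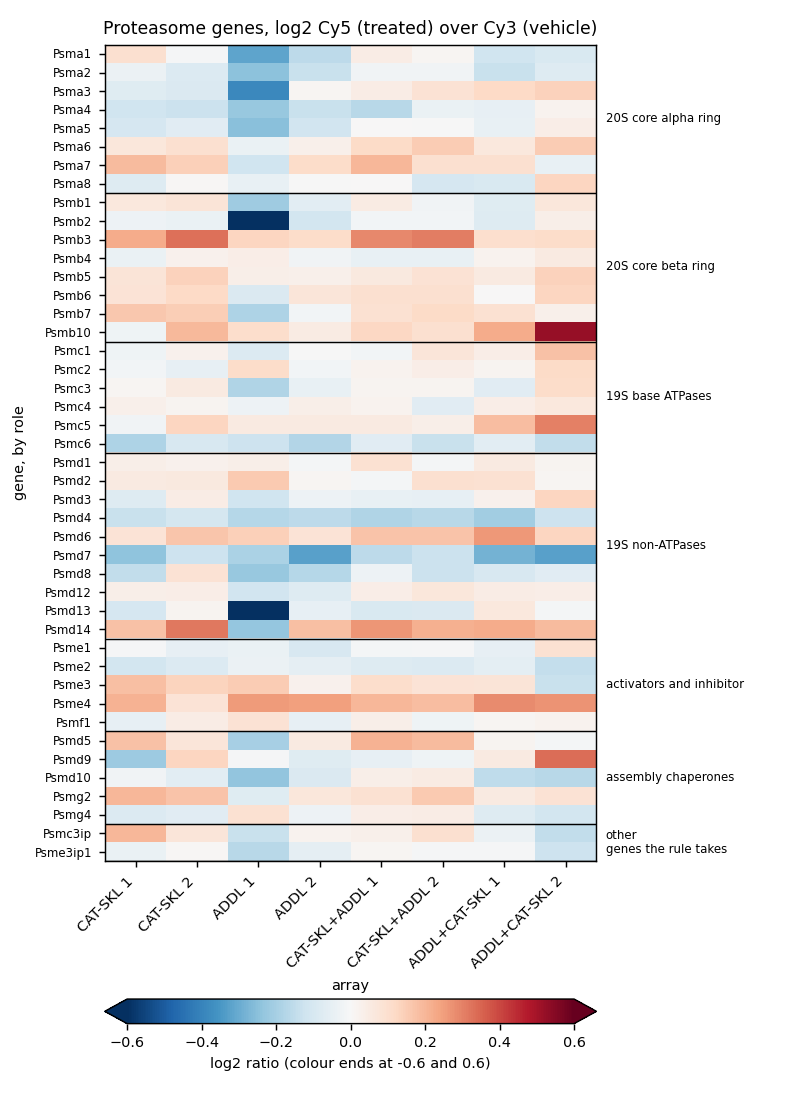
Log2 ratio of treated (Cy5) over vehicle (Cy3) signal for the 44 proteasome genes (rows, by role) on the 8 arrays (columns), after loess normalisation; red is higher and blue lower than vehicle, with colours ending at -0.6 and 0.6. ADDL 1 holds the darkest cells, Psmd13 (-1.44, beyond the colour range) and Psmb2 (-0.62).

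ADDL over vehicle measured the response to the oligomers. None of the 44 genes passed in limma, as 0% of all 22459 did, and the smallest adjusted p among the 44 was 0.0820, of Psme4. An unadjusted p below 0.05 was reached by 12 of 44 (27.3%, 1 higher and 11 lower), against 19% of all genes. On both ADDL arrays 22 of 44 genes (50%) were below vehicle and 8 above, where 31.6% and 32.1% of all genes were.

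The lower values were mainly a matter of ADDL 1. The median of the 44 genes was -0.10 in ADDL 1 and -0.02 in ADDL 2, beside 0.00 in each over all genes. All 8 alpha ring genes were below 0 in ADDL 1, with a median of -0.24, while in ADDL 2 the ring's median was -0.06 and 3 of 8 were above 0. Psma1 was at -0.32 and -0.16 (mean -0.24 ± 0.06, SE, n = 2, limma adjusted p = 0.103) and Psma2 at -0.24 and -0.13 in ADDL 1 and 2, so for these genes the arrays pointed the same way. Psma3 was at -0.39 in ADDL 1 and 0.01 in ADDL 2, which did not. ADDL 1 was the lowest of the 8 arrays for 22 of 44 proteasome genes (50%) and for 11 of the 16 core genes, against 17% of all genes.

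Psmd13, a lid subunit of the 19S particle, and Psmb2, a structural beta subunit, stood furthest apart. Psmd13 was at -1.44 in ADDL 1 and at -0.05 in ADDL 2, and its 6 other arrays lay between -0.10 and 0.06. The 2 spots of its probe gave -1.53 and -1.34 in ADDL 1, so both spots were low on that array, at a mean ratio of 0.370. Psmb2 was at -0.62 in ADDL 1 and -0.11 in ADDL 2, with the other arrays between -0.08 and 0.03; 9 of its 10 spots were used in ADDL 1 and lay between -0.75 and -0.50. Neither gene passed for the group (Psmd13 -0.74 ± 0.25 and Psmb2 -0.36 ± 0.10, SE, n = 2, limma adjusted p of 0.169 and 0.127). With the arrays centred on their medians the group mean of Psmd13 was -0.78 (limma adjusted p = 0.0148). Without ADDL 1 the group is ADDL 2 alone, at -0.05. Among all 22459 genes and accessions 11 (0.0490%) lay more than 0.5 below their next lowest array in ADDL 1, and Psmd13 and Psmb2 were 2 of these.

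The separate channels place this drop in the treated (Cy5) channel of ADDL 1, where the RNA and its labelling cannot be told apart without a dye swap. With the arrays scaled to each other, the vehicle signal of Psmd13 in ADDL 1 was 10.59 on the log2 scale and that of the 7 other arrays lay between 10.59 and 10.68. Its treated signal was 9.15 in ADDL 1 and between 10.51 and 10.70 elsewhere. For Psmb2 the vehicle signal was 12.65 in ADDL 1, within the 12.59 to 12.72 of the others, and the treated signal was 12.04 against 12.55 to 12.69. In both genes the vehicle channel of ADDL 1 was thus close to the other vehicle channels, and the treated channel was the one that lay apart.

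**Figure D2:**
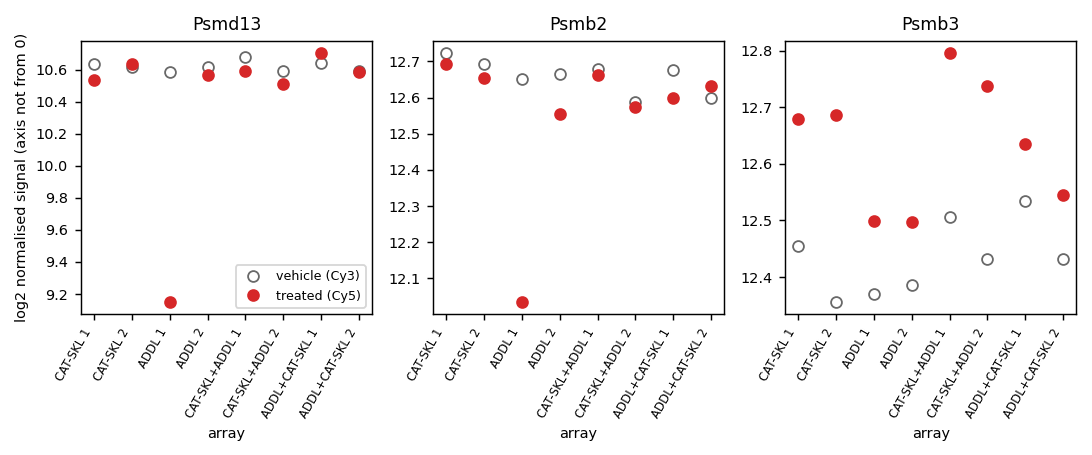
Log2 signal of Psmd13, Psmb2 and Psmb3 on each of the 8 arrays, vehicle (Cy3, open) and treated (Cy5, filled), after loess within and quantile scaling between arrays; the vertical axes differ and do not start at 0. For Psmd13 and Psmb2 only the treated point of ADDL 1 lies apart, at 9.15 and 12.04, and for Psmb3 the treated point is above the vehicle point on every array.

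Other members had ADDL values that were alike on both arrays in some genes and not in others. Psme4, which encodes the nuclear activator PA200, was at 0.25 and 0.24 (mean 0.25 ± 0.05, SE, n = 2, limma adjusted p = 0.0820) on a probe with 10 spots per array. Another probe of Psme4 gave 0.29 and -0.01 in these arrays and -0.40 and -0.12 in CAT-SKL 1 and 2, where the first gave 0.21 and 0.08, so the probes disagreed in direction after CAT-SKL. Psmd7 was at -0.19 and -0.33 (adjusted p = 0.0888). The PA28 activator subunits Psme1 and Psme2 were at -0.04 and -0.10 and at -0.04 and -0.05, Psme3, the nuclear PA28 form, at 0.15 and 0.02, and the inhibitor Psmf1 at 0.09 and -0.05. Another probe of Psmf1 gave -0.22 and -0.07 in ADDL 1 and 2, so its probes disagreed in direction in ADDL 1. Psmd14 was at -0.23 in ADDL 1 and 0.18 in ADDL 2, so its arrays lay on either side of vehicle, while Psmb5 was at 0.03 on both.

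In the pre-treatment arm the neurons had CAT-SKL before ADDL. With the arrays counted as 1 sample, none of the 44 genes passed in limma, as 0% of all genes did, and 3 of 44 (6.82%) had an unadjusted p below 0.05, against 11.3% of all genes. These were Psmb3 (0.30 ± 0.08, SE from the pooled spread, n = 1, adjusted p = 0.224), Psme4 (0.19 ± 0.08) and Psmd4 (-0.17 ± 0.07). The other probe of Psme4 had the opposite sign here, at -0.12 and -0.19. The arrays read Psmb3 at 0.29 and 0.31, Psmd4 at -0.18 and -0.17, Psmd14 at 0.26 and 0.22 and Psmd13 at -0.09 and -0.08. Psmd5, a chaperone of base assembly, was at 0.21 and 0.19. Core medians were 0.05 on each array and 19S medians 0.00. Both arrays were above 0 for 22 of 44 genes (36.2% of all genes) and below for 13 (38.8%). A fit of 8 separate samples counts these arrays as replicates, though they differed by about spot noise. Under it the same 3 genes passed (limma adjusted p of 0.00838, 0.0384 and 0.0475 for Psmb3, Psme4 and Psmd4). That is 6.82% of the 44 genes, against 10.3% of all genes under the same fit.

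ADDL followed by CAT-SKL was the post-treatment arm, and again 0 of 44 proteasome genes passed in limma, against 0.454% of all genes; 7 of 44 (15.9%) had an unadjusted p below 0.05, against 17.6%. Both arrays were above 0 for 22 of 44 genes (30.1% of all genes) and below for 11 (31.6%). Psmb10 had the highest ratio of the 44, at 0.22 and 0.52 in ADDL+CAT-SKL 1 and 2 (mean 0.37 ± 0.08, SE, n = 2, adjusted p = 0.0882). It was above its other 6 arrays (-0.03 to 0.20) on both. The other inducible subunits, outside the rule, were at 0.10 and 0.03 (Psmb8) and -0.11 and -0.11 (Psmb9). Psmc5, an ATPase of the base, was at 0.19 and 0.30 (adjusted p = 0.103), above its other arrays (-0.02 to 0.13). Psmd7 was lowest at -0.28 and -0.33 (adjusted p = 0.0721), and Psme4 was at 0.28 and 0.27 (adjusted p = 0.0744). ADDL+CAT-SKL 2, which after loess gave the higher values of Psmb10 and Psmc5, was the array with the dimmest Cy5 signal (median 87.5, against 97 to 127.5). Psmd9, a chaperone of base assembly, was at 0.34 there and at 0.06 in ADDL+CAT-SKL 1. On its other probe Psmd9 was at 0.12 on each. With the arrays centred on their medians Psmb10 and Psmc5 passed (limma adjusted p of 0.0136 and 0.0296), where 1.67% of all genes did.

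After loess 4 members were above 0 on all 8 arrays (7.47% of all genes) and 5 were below (7.99%). Psmd7 lay between -0.33 and -0.13, Psmd4 between -0.21 and -0.11, the ATPase gene Psmc6 between -0.19 and -0.06, the alpha ring gene Psma2 between -0.24 and -0.02 and Psme2 between -0.14 and -0.04 on the 8 arrays. Psmd6, a lid subunit, lay between 0.08 and 0.26, Psme4 between 0.08 and 0.28, Psmb3 between 0.10 and 0.33 and Psmb5 between 0.03 and 0.14. For Psme4 this holds for the brighter probe alone, since the other ran from -0.40 to 0.29 and was above 0 on 3 of 8 arrays. Since all arrays share the dye orientation and the vehicle, a dye effect of a probe and a response common to all treatments cannot be told apart in these values. The scaling matters too: centred on array medians in place of loess, none of the 5 lower genes was below 0 on all 8 arrays, while the 4 higher ones were still above.

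The members not described so far are given by their lowest and highest log2 ratio over the 8 arrays after loess. In the alpha ring Psma4 ran from -0.23 to 0.02, Psma5 from -0.25 to 0.04, Psma6 from -0.04 to 0.15 and Psma7 from -0.12 to 0.20. Psma8, the testis-enriched alternative to Psma7, was dim: 1 of its 3 probes was not tested and the vehicle signal of the probe used was well above background on 7 of 8 arrays, unlike the other 43 genes. Its log2 ratio ran from -0.10 to 0.13 (-0.22 to 0.08 on its other tested probe), and that of the beta ring gene Psmb4 from -0.05 to 0.06. Among the ATPases of the base Psmc1 ran from -0.08 to 0.18, Psmc2 from -0.05 to 0.12, Psmc3 from -0.18 to 0.11 and Psmc4 from -0.07 to 0.06. The scaffold subunits Psmd1 and Psmd2 ran from -0.01 to 0.09 and from -0.01 to 0.16. The lid subunits Psmd3, Psmd8 and Psmd12 ran from -0.12 to 0.13, -0.23 to 0.09 and -0.12 to 0.07. The chaperones of core assembly Psmg2 and Psmg4 ran from -0.07 to 0.20 and -0.11 to 0.09, and Psmc3ip and Psme3ip1 from -0.15 to 0.20 and -0.17 to 0.01. On another probe of Psmg4 the range was -0.21 to -0.02, below 0 on all 8 arrays.

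The treatments were then set against each other. CAT-SKL was compared with ADDL, both single agents of the same duration in the same row of the slide. CAT-SKL lay in columns 1 and 2 of that row and ADDL in columns 3 and 4, so agent and column cannot be told apart. None of the 44 genes passed in limma (0% of all genes; 4 of 44, all higher after CAT-SKL, at an unadjusted p below 0.05, against 8.70% of all genes). By position of the arrays, both CAT-SKL arrays lay above both ADDL arrays for 21 of 44 genes, against 18.3% of all genes, and below for 4, against 22%. In the 20S core this was so for 12 of 16 and in the 19S particle for 4 of 16, with 0 and 1 the other way. Psma1 was at 0.10 and -0.01 after CAT-SKL and -0.32 and -0.16 after ADDL (difference 0.28 ± 0.09, SE, n = 2 against 2, adjusted p = 0.541). Psmb7 was at 0.16 and 0.15 against -0.18 and -0.02 (difference 0.25 ± 0.08, adjusted p = 0.541), and Psmb1 at 0.06 and 0.08 against -0.21 and -0.06 (0.21 ± 0.09, adjusted p = 0.567). With the deposited log ratios the counts of genes with CAT-SKL above ADDL were 11 of 16 and 7 of 16 (19.6% of all genes), and centred on array medians they were 15 of 16 and 16 of 16 (30.7% of all genes). Under that centring core and particle no longer stood apart in this count. Whether the core differed from the particle was not tested.

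**Figure D3:**
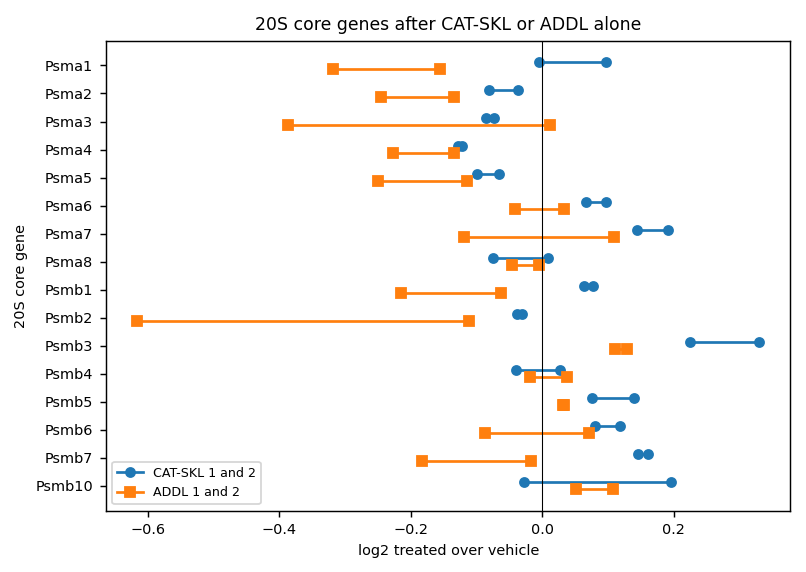
Log2 ratio over vehicle of the 16 genes of the 20S core on the 2 arrays of CAT-SKL (circles) and the 2 of ADDL (squares), each pair joined by a line, after loess. For 12 of the 16 genes the CAT-SKL pair lies wholly to the right of the ADDL pair; Psma3, Psma8, Psmb4 and Psmb10 overlap.

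ADDL followed by CAT-SKL was compared with ADDL alone, and 0 of 44 passed in limma (0% of all genes), with 3 of 44 at an unadjusted p below 0.05 against 8.39% of all. The 3 were core genes: Psma3 (0.12 and 0.14 against -0.39 and 0.01, difference 0.32 ± 0.12, SE, n = 2 against 2, adjusted p = 0.577), Psmb10 (0.29 ± 0.12) and Psmb2 (0.34 ± 0.15). Both post-treatment arrays lay above both ADDL arrays for 19 of 44 genes, against 19.1% of all genes, and below for 2, against 20.6%. Psmd13 differed by 0.77 ± 0.35 (adjusted p = 0.610), and its values were 0.06 and -0.01 after the sequence against -1.44 and -0.05 after ADDL, so the difference lay in ADDL 1. CAT-SKL followed by ADDL against ADDL alone gave 0 of 44 (0% of all genes), with 1 of 44, Psma1, at an unadjusted p below 0.05 (difference 0.26 ± 0.11, n = 1 against 2, limma adjusted p = 1.00) against 3.90% of all genes; the median difference was 0.09. Without ADDL 1 the difference of Psmd13 in that comparison turned from 0.66 to -0.04. Sequential and single treatments lay in different rows of the slide and differed in duration, so these cannot be told apart from the added agent.

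The order of the agents, pre-treatment against post-treatment, gave 0 of 44 in limma at an adjusted and 0 at an unadjusted p below 0.05 (0% and 5.64% of all genes). The smallest p were those of Psmb3 (0.19 ± 0.09, SE, n = 1 against 2), Psmd10, also known as gankyrin, a chaperone of the base (0.04 and 0.05 against -0.15 and -0.17, difference 0.20 ± 0.10), and Psmc5 (-0.20 ± 0.10), with adjusted p between 0.857 and 0.863. Psmb10 differed most in size (-0.26 ± 0.14, adjusted p = 0.865). The median difference of the 44 genes was 0.00. Within their shared row of the slide CAT-SKL+ADDL lay in columns 1 and 2 and ADDL+CAT-SKL in columns 3 and 4, so order and column cannot be told apart.

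**Figure D4:**
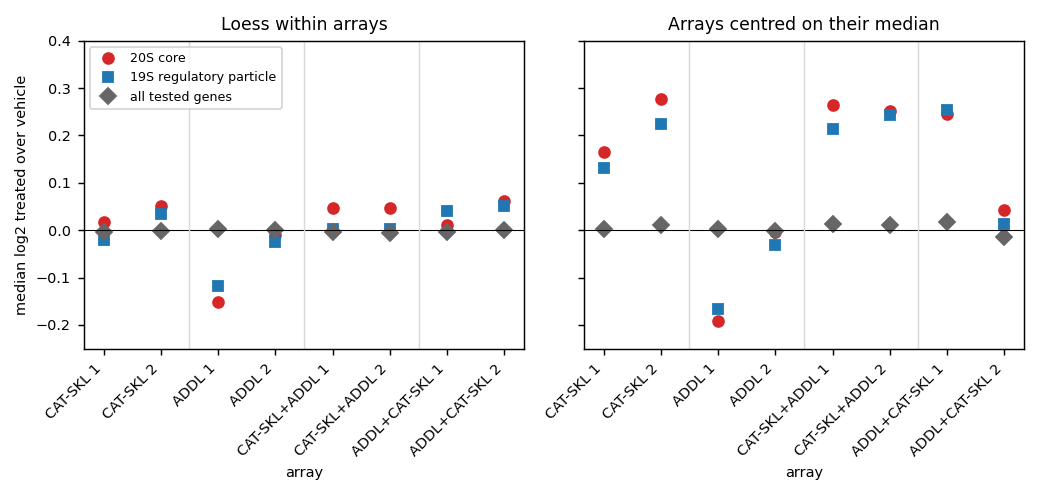
Median log2 ratio over vehicle on each of the 8 arrays for the 16 core genes (circles), the 16 genes of the 19S particle (squares) and all 22459 genes and accessions tested (diamonds), after loess (left) and with arrays centred on their median (right). ADDL 1 is lowest for core and particle in both panels (core -0.15 and -0.19), whereas CAT-SKL, CAT-SKL+ADDL and ADDL+CAT-SKL 1 lie near 0 on the left and between 0.13 and 0.28 on the right.

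The level of the whole group depended on how the arrays were scaled. Proteasome genes are bright, with a median log2 brightness of 11.6 against 7.40 over all genes, and loess centres bright and dim spots apart. Centred on array medians instead, the median of the 44 genes was 0.13 and 0.21 in CAT-SKL 1 and 2, -0.14 and -0.02 in ADDL 1 and 2, 0.23 on each CAT-SKL+ADDL array, and 0.22 and 0.00 in ADDL+CAT-SKL 1 and 2. The medians of all genes stayed between -0.01 and 0.02. Under this scaling 41 of 44 genes were above 0 after CAT-SKL, in place of 22, and 13 in place of 14 after ADDL. The low position of ADDL 1 was alike under both scalings, whereas no direction is given for the group after CAT-SKL because it depended on the scaling. The spread over the 8 arrays after loess was small, with a median SD of 0.0783 per gene against 0.0930 over all genes.

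Other genes of the ubiquitin-proteasome pathway had 31 of 37 listed members tested, and 0 passed in limma after CAT-SKL, ADDL, CAT-SKL+ADDL or ADDL+CAT-SKL, where 2.62%, 0%, 0% and 0.454% of all genes did. At an unadjusted p below 0.05 there were 10 of 31 after CAT-SKL (32.3%, against 21.2% of all genes) and 13 after ADDL (41.9%, against 19%). After CAT-SKL+ADDL there were 4 (12.9%, against 11.3%) and after ADDL+CAT-SKL 3 (9.68%, against 17.6%). Ngly1, the deglycosylase that processes NRF1, came closest: it was at 0.44 and 0.20 after CAT-SKL (mean 0.32 ± 0.07, SE, n = 2, adjusted p = 0.0531) and 0.38 and 0.36 after ADDL (adjusted p = 0.0723). Nfe2l1, which encodes NRF1, was at 0.27 and 0.13 after CAT-SKL and 0.25 and 0.16 after ADDL. Nfe2l2, the related NRF2, was at 0.87 and 0.21 and at 0.28 and 0.74, so its arrays differed widely. Pomp, the maturation factor of the core, was at 0.02 and 0.04 after CAT-SKL and -0.28 and -0.06 after ADDL, again lowest in ADDL 1. Ubb, a stress-inducible ubiquitin gene, was at 0.36 and 0.13 after CAT-SKL and 0.22 and 0.28 after ADDL, above vehicle on each of these arrays.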

How the data were processed

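Each of 8 arrays on 1 Agilent slide carried treated RNA in Cy5 and vehicle RNA in Cy3. The authors deposited spot intensity (median brightness by channel). They also deposited a log10 ratio that Agilent Feature Extraction 11.5 had corrected for background and dye, according to the file headers and processing notes, and a table repeating it. The array design names build rn4, so no probe coordinates are given. Flags in the deposited files mark spots by background, outliers and saturation, and 0 spots were saturated.

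Background was corrected with normexp (offset 50) and arrays were normalised by loess in limma 3.58.1 under R 4.3.3, with control spots at weight 0 and outlier spots left out. Probes were kept if 2 or more of the 8 arrays had either channel well above background, a gene was read by its brightest probe, and symbols came from RefSeq accessions of GRCr8. Groups were fitted with limma over 7 samples, with Benjamini-Hochberg adjustment over all 22459 genes and a threshold of 0.05. Testing a ratio against 0 leaves out the spread of vehicle. Errors are limma's SE. The fit was tested on simulated data. Members, roles and lists were chosen with earlier results of these data known. Genes named with values are those past the threshold or with the smallest p in a comparison, the highest and lowest, and fixed catalytic, receptor, activator and pathway genes; genes that stood out in ADDL 1 or kept 1 sign were chosen after their values were seen. Replicate numbers did not pair the samples. Some genes of the pathway list are not reported here by name.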

Additional observations from a re-analysis of the deposited data

Results flagged for a closer look

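The vehicle signal of each of the 44 proteasome genes was compared over the 8 arrays for a sample far from the others (a wide gap to the nearest array, by Dixon's criterion at 95%), which chance flags in about 1 of 20 groups. On that count 5 genes were marked, 4 of them on a CAT-SKL+ADDL array. Only the 44 genes were checked, so whether other genes share this was not tested. The vehicle log2 signal of Psmd5 was 8.57 in CAT-SKL+ADDL 2, against 8.95 to 9.07 on the other arrays, and its treated signal was also lowest there (8.76), so its ratio of 0.19 rests on a spot pair that was dimmer in both channels. That of Psmc5 was 14.29 in CAT-SKL+ADDL 2 (others up to 14.15), that of Psmd12 11.86 in the same array (others from 11.95), that of Psmd1 13.45 in CAT-SKL+ADDL 1 (others from 13.52) and that of Psmc3ip 7.91 in ADDL 2 (others up to 7.81). None of the 5 was marked in ADDL 1, whose low treated values are described with the results.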

How the results depend on the processing

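Few arrays limit the precision. Of the 44 proteasome genes, the count that passed after CAT-SKL (1) became 5 with arrays centred on their median and 0 without background correction, with the deposited log ratios or without the filter on dim probes. With the replicate number as a block, whose numbers did not pair the samples (correlations of replicate deviations from -0.202 to 0.0784), it was 0. After ADDL, CAT-SKL+ADDL and ADDL+CAT-SKL it was 3, 3 and 4 with 8 separate samples and 1, 1 and 2 with median centring, in place of 0. With median centring the 5 genes after CAT-SKL were Psma6, Psma7, Psmb3, Psmb5 and Psmd14, and the 2 after ADDL+CAT-SKL were Psmb10 and Psmc5. The fit of 8 separate samples counts the CAT-SKL+ADDL arrays, which differed by about spot noise, as replicates. More genes passed in general: 4.34%, 10.3% and 3.94% of all genes with 8 separate samples and 1.91%, 1.45% and 1.67% with median centring, which after CAT-SKL passed 8.10%. Leaving out 1 array in turn gave 0 to 1 after CAT-SKL, after ADDL, for ADDL+CAT-SKL against ADDL and for CAT-SKL against ADDL, the call outside CAT-SKL being Psmd13 without ADDL 2. There ADDL 1, where its low value was seen, is the lone array and is assumed to vary like the other groups, so that call restates 1 array.

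The median of the 44 genes under median centring was 0.17 after CAT-SKL, 0.23 after CAT-SKL+ADDL and 0.10 after ADDL+CAT-SKL, and 0.31, 0.18, 0.13 and 0.25 for CAT-SKL+ADDL against ADDL, ADDL+CAT-SKL against ADDL, CAT-SKL+ADDL against ADDL+CAT-SKL and CAT-SKL against ADDL. With the deposited log ratios it was 0.041 after CAT-SKL+ADDL and 0.027 for the order of agents. Without Psmb2 and Psmd13, a choice made after seeing the data, it was 0.036 after CAT-SKL+ADDL. Over the left-out arrays it ran from 0.060 to 0.14 for ADDL+CAT-SKL against ADDL and from -0.019 to 0.016 for the order of agents. With median centring Psmd4 turned to 0.061 after CAT-SKL+ADDL, and Psme4 to 0.12 and 0.033 for CAT-SKL+ADDL and CAT-SKL against ADDL; for CAT-SKL+ADDL against ADDL, Psmd13 ran from -0.037 without ADDL 1 to 1.35 without ADDL 2. The cause was not tested. Over all genes the calls after CAT-SKL were 188 higher and 400 lower, and 1417 and 402 with median centring.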

Other observations

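Beside Psmd13 and Psmb2, the 9 other genes and accessions that lay more than 0.5 below their next lowest array in ADDL 1 included 5 with a symbol, chosen after their values were seen. Abcd3, a transporter of the peroxisomal membrane, was at -1.32 in ADDL 1 with a next lowest array of -0.21. Lyrm7, an assembly factor of the mitochondrial respiratory chain, was at -0.78 (next -0.12), Cwc25, a splicing factor, at -0.55 (next -0.02), the cold-inducible RNA-binding gene Rbm3 at -0.55 (next -0.05) and 1700009N14Rikl at -0.59 (next -0.08).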
